A study of Caenorhabditis elegans with 12 samples.

Results

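Genes that build fatty acids, lengthen them and turn them into polyunsaturated fatty acids were compared between worms given tetrathiomolybdate (TM), a copper chelator, and control worms. The set holds 10 genes of the 24238 in the deposited table, taken by name: the carboxylase and synthase genes pod-2 and fasn-1, the desaturase genes fat-1, fat-2, fat-3 and fat-4, and the elongase genes elo-1, elo-2, elo-5 and elo-6. All 10 passed the filter of a mean of at least 1 FPKM (read fragments scaled to transcript length and sequencing depth), as 11535 genes did in all. Poly(A) RNA of whole Caenorhabditis elegans of N2, the wild-type Bristol strain, gave 12 sequencing libraries. In 6 of them the worms had received dimethyl sulfoxide (DMSO), the solvent control, and in the other 6 they had received TM for 4 days. The labels name no mutant allele, transgene, stage, dose or culture for either group and no duration for DMSO, so the spread that p-values rest on is that between libraries and may be partly technical.

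Fatty acid synthesis begins with acetyl-CoA carboxylase, POD-2, which makes malonyl-CoA, and with the synthase FASN-1, which builds palmitic acid from it. Elongases then add carbons, and desaturases put in double bonds one after the other. Unlike mammals, C. elegans makes its own linoleic acid, through FAT-2, and its own omega-3 fatty acids, through FAT-1. FAT-3 and FAT-4 add the double bonds that lead to arachidonic and eicosapentaenoic acid, with ELO-1 lengthening the chain between them. ELO-2 lengthens palmitic acid, and ELO-5 and ELO-6 make branched-chain fatty acids with a methyl group near the end, which worms need for growth. The intestine is a main site of this synthesis.

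The 4 elongase genes fell and the synthase gene fasn-1 rose, while the 4 polyunsaturated desaturase genes and pod-2 had changes that did not pass the test. The level of fasn-1 was 1.38-fold that of controls. The falls were to 0.699-fold for elo-6, 0.759-fold for elo-2, 0.771-fold for elo-5 and 0.890-fold for elo-1. In the count model fitted over all tested genes (edgeR's quasi-likelihood test with Benjamini-Hochberg adjustment), 1 of the 10 genes rose, 4 fell and 5 did not pass an adjusted p of 0.05. Over all tested genes, 39.8% passed, 23.7% higher and 16.0% lower in TM. The share of the 10 that passed is thus near that of the transcriptome as a whole. The median log2 change was -0.066 over the 10 genes and -0.0091 over all tested genes. The summed level of the 10 genes was 1973 ± 95.2 FPKM in DMSO and 1818 ± 128 FPKM in TM (mean ± SD, n = 6 libraries each).

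**Figure D1:**
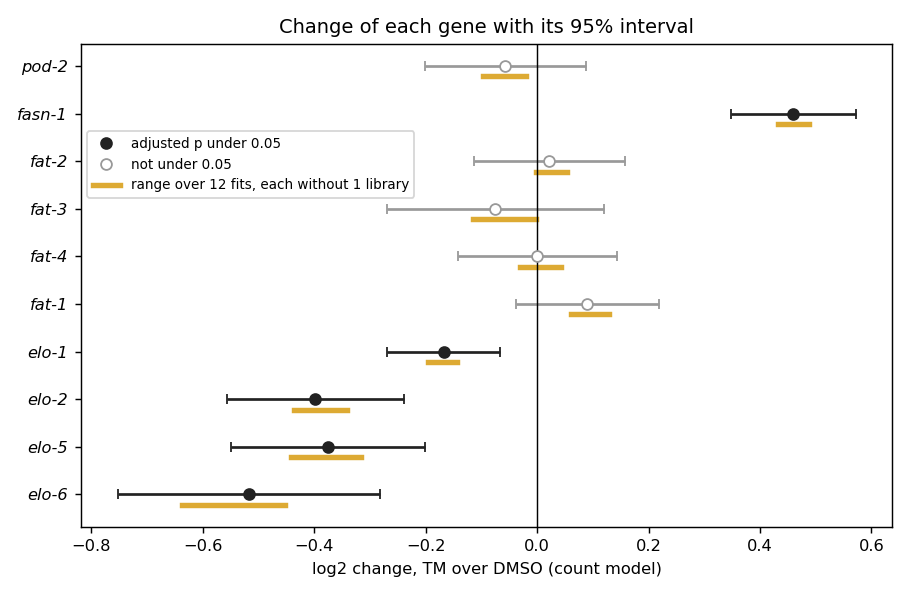
Change of each gene in TM relative to DMSO on the log2 scale, from the count model, with its 95% interval. Filled points passed an adjusted p of 0.05, and the yellow bars span the 12 fits that each leave out 1 library. Only fasn-1 lies wholly to the right of 0, and the 4 elongase genes lie wholly to its left.

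The first committed step and the synthase moved apart. The carboxylase gene pod-2 (chromosome II, 1136785 to 1152701, plus strand, WBcel235) had 59.9 FPKM in the lowest DMSO library, a median of 63.2 and a highest value of 70.2. In the TM libraries it ranged from 57.5 to 71.3 FPKM with a median of 63.3. The 2 ranges lay over each other, and the log2 change was -0.06 ± 0.074 (SE, edgeR adjusted p = 0.559), with an interval from -0.20 to 0.09.

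The synthase gene fasn-1 (chromosome I, 8975366 to 8986540, minus strand) had a lowest DMSO value of 10.9 FPKM, a median of 13.2 and a highest of 13.5. The TM values ran from 15.8 to 18.8 FPKM with a median of 18.2. Every TM library lay above every DMSO library, as in 16.1% of tested genes. Ranges that did not overlap were found for 2 of the 10 genes, fasn-1 and elo-2, against 22.5% of tested genes in either direction. The log2 change was 0.46 ± 0.057 (edgeR adjusted p = 2.70e-05), from a mean of 12.7 ± 1.05 to 17.9 ± 1.11 FPKM.

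Whether related genes changed unequally was tested on their ratio within each library, for 5 pairs, with two-sided exact permutation tests. The FPKM ratio of fasn-1 to pod-2 ran from 0.175 to 0.220 in DMSO and from 0.245 to 0.323 in TM. No TM library had a ratio as low as any DMSO library. The log2 ratio of the counts differed by 0.52 between the groups (exact permutation p = 0.00216, the smallest that 6 against 6 libraries allow, and 0.0108 adjusted over the 5 pairs). Both genes have long transcripts, 8451 bases of merged exon for fasn-1 and 6855 for pod-2, against 922 to 1540 for the other 8 genes. With each library's trend on transcript length removed, the log2 change was 0.47 for fasn-1 and -0.02 for pod-2.

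**Figure D2:**
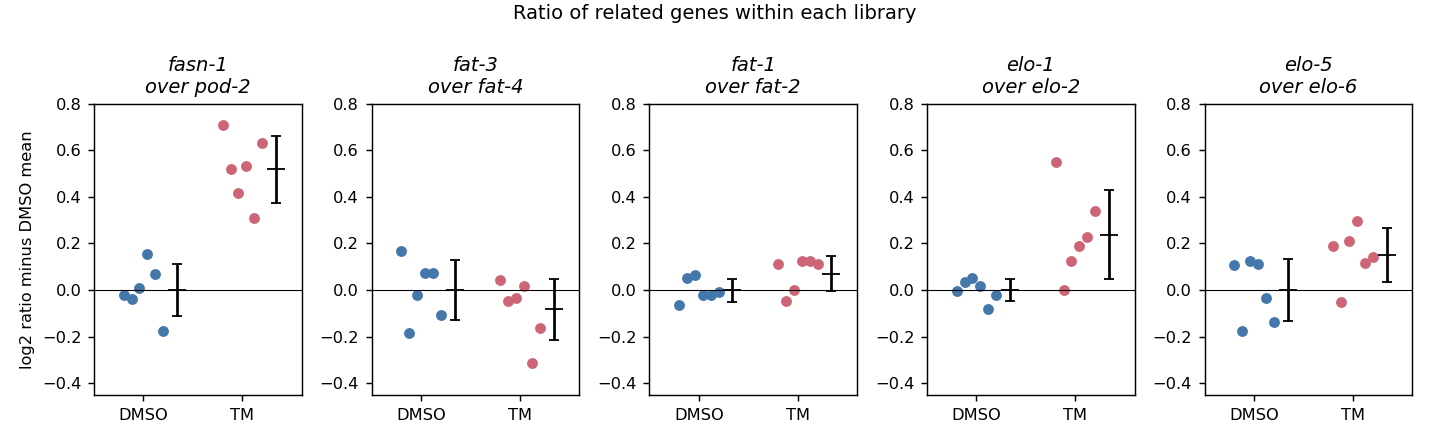
Ratio of related genes within each library, as log2 CPM, counts scaled to library size, after subtracting the mean of the 6 DMSO libraries. Each point is a library, and the bars give the mean and SD of a group. The fasn-1 to pod-2 ratio is higher in all 6 TM libraries than in any DMSO library, by 0.52 on average, and the other 4 pairs overlap between the groups.

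Of the 4 polyunsaturated desaturase genes 0 passed with edgeR, at an unadjusted p under 0.05, with DESeq2 or with limma. They lie on chromosome IV, as do 8 of the 10 genes, against 17.1% of tested genes. They form 2 neighbouring pairs on the plus strand: fat-4 (9799429 to 9802226) ends 796 bases before fat-3 (9803023 to 9806119), and fat-1 (13315644 to 13318811) ends 5061 bases before fat-2 (13323873 to 13326395). No other gene of the table lies between the members of either pair. The summed level of the 4 was 866 ± 43.1 FPKM in DMSO and 904 ± 50.7 FPKM in TM.

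The gene fat-2, whose enzyme turns oleic into linoleic acid, was the most abundant of the 10. Its level ran from 388 through a median of 429 to 449.8 FPKM in DMSO. The TM libraries spanned 398 through 437 to 477 FPKM. The groups overlapped over most of their ranges, with a log2 change of 0.02 ± 0.069 (edgeR adjusted p = 0.817) and an interval from -0.11 to 0.16.

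The omega-3 desaturase gene fat-1 ran from 224 through a median of 235.3 to 263 FPKM in DMSO. It ran from 244 through 263 to 272 FPKM in TM. All 6 TM libraries lay above the DMSO mean of 239 FPKM and 3 lay above the highest DMSO library. The log2 change of 0.09 ± 0.065 did not pass (edgeR adjusted p = 0.292). It passed with scaling by total counts only (log2 change 0.13, adjusted p = 0.0391). It passed as well without DMSO replicates 2 and 6 and TM replicate 5 (log2 change 0.16, adjusted p = 0.00460). The ratio of fat-1 to fat-2 differed by 0.07 on the log2 scale (exact permutation p = 0.0823, and 0.103 adjusted over the 5 pairs). It differed by 0.09 without TM replicate 2 (exact permutation, adjusted p = 0.0298).

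The gene fat-3, for the desaturase that acts on linoleic and alpha-linolenic acid, ran from 53.8 through 66.7 to 74.9 FPKM in DMSO. Its TM values went from 44.6 through 66.6 to 72.8 FPKM. The lowest value of each group was in DMSO replicate 6 and in TM replicate 5, and the other libraries of the 2 groups overlapped. The log2 change was -0.07 ± 0.099 (edgeR adjusted p = 0.571).

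The gene fat-4, for the desaturase that completes arachidonic and eicosapentaenoic acid, ran from 120.1 through 137 to 152 FPKM in DMSO. Its TM values went from 115 through 145 to 156 FPKM. Its lowest values lay in the same 2 libraries as those of fat-3. The groups overlapped, and the log2 change of 0.0005 ± 0.072 (edgeR adjusted p = 0.996) had an interval from -0.14 to 0.14. The ratio of fat-3 to fat-4 differed by -0.08 on the log2 scale (exact permutation p = 0.299, adjusted 0.299).

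**Figure D3:**
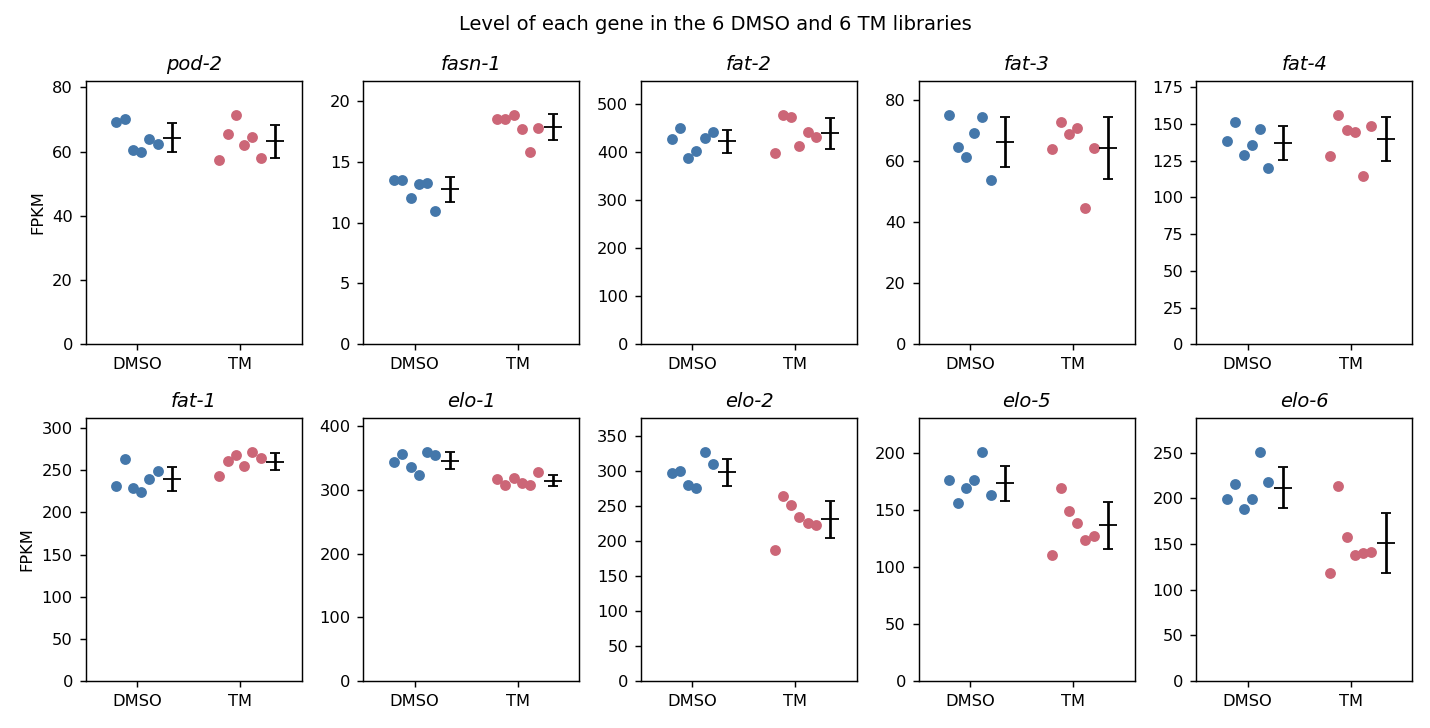
Level of each of the 10 genes in FPKM, with a point for each library and the mean and SD of each group beside the points. All axes start at 0. The ranges of fasn-1 and elo-2 do not overlap between DMSO and TM, and those of the 4 polyunsaturated desaturase genes do.

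The 4 elongase genes of the set all fell, with the largest fitted change for elo-6 and the smallest for elo-1. All 4 lie on chromosome IV. The summed level of elo-1 and elo-2 was 644 ± 32.2 FPKM in DMSO and 546 ± 24.7 FPKM in TM. The summed level of the branched-chain elongase genes elo-5 and elo-6 was 385 ± 33.3 FPKM in DMSO and 287 ± 52.8 FPKM in TM.

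The gene elo-2 (17466062 to 17467408, minus strand), whose enzyme lengthens palmitic acid, ran from 276 through a median of 299 to 327 FPKM in DMSO. The TM libraries spanned 187 through 230.3 to 264 FPKM. Every TM library lay below every DMSO library, as in 6.41% of tested genes. The log2 change was -0.40 ± 0.081 (edgeR adjusted p = 0.00142).

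The gene elo-1 (9526366 to 9528336, plus strand), whose enzyme lengthens polyunsaturated fatty acids, ran from 324 through 349.7 to 359 FPKM in DMSO. In TM it ran from 307 through 314 to 328 FPKM. Of the TM libraries, 5 lay below the lowest DMSO library and 1 within the DMSO range. The log2 change of -0.17 ± 0.051 was the smallest of those that passed (edgeR adjusted p = 0.0183). It did not pass without TM replicates 1 and 2 (adjusted p = 0.0822), a setting added after the data were seen. Nor did it pass with a term for replicate number in the model (log2 change -0.166, edgeR adjusted p = 0.0616).

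The fall of elo-2 was larger than that of elo-1. The FPKM ratio of elo-1 to elo-2 was 1.16 ± 0.038 in DMSO and 1.38 ± 0.19 in TM, and the log2 ratio of the counts differed by 0.24 (exact permutation p = 0.00866, and 0.0216 adjusted over the 5 pairs). The difference did not pass without DMSO replicate 5 (0.22, adjusted p = 0.0595), without DMSO replicate 6 (0.23, adjusted p = 0.0541), or without DMSO replicates 2 and 6 and TM replicate 5 (0.24, adjusted p = 0.132).

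The gene elo-5 (5374616 to 5377117, minus strand), needed for branched-chain fatty acids, ran from 156 through 172 to 201 FPKM in DMSO. In TM it ran from 110.3 through 133 to 169 FPKM. TM replicate 2 lay within the DMSO range and the other 5 TM libraries below it. The log2 change was -0.37 ± 0.089 (edgeR adjusted p = 0.00411). The last 162 bases of elo-5 overlap F41H10.3 on the other strand, 17.6% of its exon length. Whether the counting used strand is not stated, so reads from that stretch cannot be told apart. F41H10.3 had a log2 change of -0.08 ± 0.063 (edgeR adjusted p = 0.315).

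The gene elo-6 (5386629 to 5388559, minus strand), which acts beside elo-5 on branched-chain fatty acids, ran from 189 through 207 to 251 FPKM in DMSO. In TM it ran from 118 through 140.2 to 213 FPKM. TM replicate 2 again lay within the DMSO range and the other 5 below it. The log2 change of -0.52 ± 0.12 was the largest of the 10 genes (edgeR adjusted p = 0.00358). It did not pass without DMSO replicates 2 and 6 and TM replicate 5 (log2 change -0.44, adjusted p = 0.0660). The genes elo-5 and elo-6 lie 9511 bases apart with 6 other genes of the table between them. Their ratio differed by 0.15 on the log2 scale (exact permutation p = 0.0584, and 0.0974 adjusted over the 5 pairs). Without TM replicate 2 it differed by 0.19 (exact permutation, adjusted p = 0.0298).

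The 3 elongase genes that fell most had their extremes in the same TM libraries. TM replicate 1 was lowest and TM replicate 2 highest for each of elo-2, elo-5 and elo-6. This was not particular to them. By FPKM, fat-2, which did not pass, was also lowest in TM replicate 1 (398 FPKM) and highest in TM replicate 2 (477 FPKM). The genes pod-2 and fat-1 were lowest in TM replicate 1 too, and fat-3 and fat-4 highest in TM replicate 2. By contrast, elo-1 was lowest in TM replicate 2, and fasn-1 had its extremes in TM replicates 5 and 3. Relative to the DMSO mean, TM replicate 1 was at -0.73, -0.70 and -0.89 on the log2 scale for elo-2, elo-5 and elo-6. TM replicate 2 was at -0.22, -0.08 and -0.03. The SD among TM libraries was 21.8% of the mean for elo-6, 15.9% for fat-3, 15.2% for elo-5, 11.5% for elo-2 and 10.9% for fat-4, and between 2.54% and 8.16% for the other 5 genes. With any single library left out, the log2 change stayed between -0.44 and -0.34 for elo-2, between -0.44 and -0.32 for elo-5 and between -0.64 and -0.45 for elo-6.

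**Figure D4:**
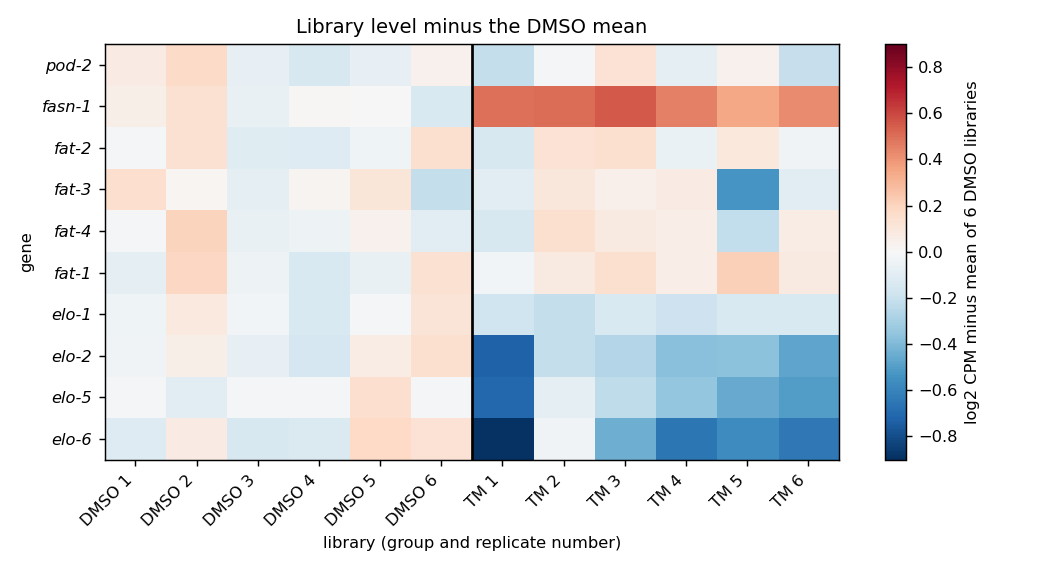
Level of each gene in each library as log2 CPM minus the mean of the 6 DMSO libraries, from blue (lower) to red (higher). The fasn-1 row is red in all 6 TM libraries. The elo-2, elo-5 and elo-6 rows are darkest blue in TM replicate 1 and palest in TM replicate 2, and fat-3 is lowest in TM replicate 5.

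The order of the levels, which FPKM allows as a value per length, was led in both groups by fat-2 and elo-1. In DMSO the order went on with elo-2, fat-1, elo-6, elo-5, fat-4, fat-3 and pod-2, and fasn-1 was last. The library ranges of elo-1 and elo-2, of fat-1 and elo-6, of elo-6 and elo-5, and of fat-3 and pod-2 overlapped, and those of the other neighbours did not. In TM fat-1 stood above elo-2, with 260.5 against 231 FPKM and overlapping ranges. In TM fat-4 stood between elo-6 and elo-5, with 139.8 FPKM against 151 and 136, and its range overlapped both. The mean level of 9 of the 10 genes in DMSO lay above that of at least 80.6% of tested genes. The exception was fasn-1, above 46.8%.

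For each gene that passed, the 2 tested genes with the most similar course over the 12 libraries were found. The measure was the root-mean-square difference of log2 CPM (counts scaled to library size), each taken relative to the gene's DMSO mean. The gene most like elo-2 was fat-6, a stearoyl-CoA desaturase gene that makes oleic acid, at a distance of 0.062, followed by spp-8, a saposin-like gene, at 0.075. The genes elo-2 and elo-5 lay 0.093 apart, so that elo-2 was second for elo-5, after vrp-1 at 0.092. For elo-6 the nearest were C35A11.4 at 0.096 and cept-1 at 0.13. For elo-1 the nearest were arle-14 at 0.035 and ZK686.3 at 0.039. For fasn-1 they were tln-1, which encodes talin, at 0.074 and Y39G10AR.11 at 0.077, and the nearest of the other 9 genes, fat-1, was 0.291 away.

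A further 46 genes of fatty acid synthesis, its regulation and the use of its products are called other pathway genes here. Of these, 43 were tested, 6 rose, 7 fell and 30 did not pass, with a median log2 change of -0.05. This is 13 called genes, 30.2% of those tested, against 39.8% of all tested genes (23.7% higher and 16.0% lower). Among the 6 was elo-8, which entered the test only through its TM levels. Only 3 rose, in place of 6, when DMSO replicate 3, TM replicate 4 or TM replicate 6 was left out. Without DMSO replicates 2 and 6 and TM replicate 5, 9 rose and 11 fell.

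All 3 genes for desaturases of saturated fatty acids fell. FAT-6 and FAT-7 make the oleic acid that FAT-2 uses, and FAT-5 acts on palmitic acid. The log2 changes were -1.77 ± 0.21 for fat-5 (edgeR adjusted p = 2.21e-05), -2.13 ± 0.21 for fat-7 (adjusted p = 4.75e-06) and -0.36 ± 0.078 for fat-6 (adjusted p = 0.00226). Like elo-2, fat-6 was lowest in TM replicate 1, at 186 FPKM, and highest among TM libraries in TM replicate 2, at 264 FPKM. This likeness is no separate finding, since fat-6 was the gene nearest to elo-2 over the same 12 libraries.

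Of the other elongase-family genes, elo-8 was called higher, but it passed the filter only through its TM libraries, so its call is a description and no support. It had a mean of 0.466 ± 0.288 FPKM in controls and 2.66 ± 0.550 FPKM after TM, and a fitted log2 change of 2.43 ± 0.33. Its DMSO libraries ran from 0.214 to 1.003 FPKM and its TM libraries from 1.82 to 3.49 FPKM, without overlap. The genes elo-3, elo-4 and elo-9 did not pass, and elo-7 was below the filter, at 0.133 ± 0.224 FPKM in DMSO and 1.12 ± 0.352 FPKM in TM. The remaining enzymes of the elongation cycle, let-767 (ketoacyl reductase), hpo-8 (dehydratase) and art-1 (enoyl reductase), had log2 changes of -0.06, -0.18 and -0.08, and 0 of the 3 passed in the edgeR fit, at an unadjusted p under 0.05, with DESeq2 or with limma.

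Among electron donors of the desaturases, the cytochrome b5 gene cytb-5.2 rose by 0.24 ± 0.083 on the log2 scale (edgeR adjusted p = 0.0341), with means of 83.5 ± 2.52 and 100.4 ± 11.6 FPKM, and 2 others did not pass. In the supply of acetyl-CoA and malonyl-CoA, the ATP-citrate lyase gene acly-2 fell (log2 change -0.22 ± 0.063, adjusted p = 0.0110), and 3 others did not pass. For branched-chain fatty acids, the acyl-CoA synthetase gene acs-1, which activates them, rose by 0.39 ± 0.083 on the log2 scale (edgeR adjusted p = 0.00203), from a mean of 12.9 ± 1.22 FPKM to one of 17.2 ± 2.41 FPKM. The branched-chain aminotransferase gene bcat-1, which acts on the amino acids they are made from, fell by 0.15 ± 0.057 on the log2 scale (adjusted p = 0.0482), its mean going from 141 ± 8.14 to 130.2 ± 5.93 FPKM.

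Of 12 regulator genes, 0 rose, 2 fell and 10 did not pass, against 23.7% higher and 16.0% lower among all tested genes. The 2 were the nuclear hormone receptor genes nhr-13 (log2 change -0.29 ± 0.079, edgeR adjusted p = 0.00918) and nhr-66 (log2 change -0.30 ± 0.091, adjusted p = 0.0171). The gene sbp-1, for the SREBP transcription factor of fat synthesis, stood at 7.46 ± 0.199 FPKM in controls and at 7.68 ± 0.776 FPKM after TM (adjusted p = 0.904). For its partner in fat regulation, mdt-15, a Mediator subunit, the log2 change was -0.04 ± 0.050. That of nhr-49, a nuclear hormone receptor of fat metabolism, was -0.06 ± 0.056. These 3 were named after their values were seen.

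Of 6 genes for P450 enzymes, their electron-donating reductase and epoxide hydrolases, which act in the turnover of long polyunsaturated fatty acids, 3 rose and 0 fell. They were the P450 gene cyp-33E2 (log2 change 0.64 ± 0.22, edgeR adjusted p = 0.0334), the P450 reductase gene emb-8 (log2 change 0.19 ± 0.052, adjusted p = 0.00958) and the epoxide hydrolase gene ceeh-1 (log2 change 0.22 ± 0.084, adjusted p = 0.0496). Among all tested genes, 23.7% rose and 16.0% fell. Of 4 tested genes for acyl exchange in phospholipids, 0 passed with edgeR, with 2 of 4, acl-8 and acl-9, at an unadjusted p under 0.05, while 2 passed with DESeq2 and 1 with limma.

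**Figure D5:**
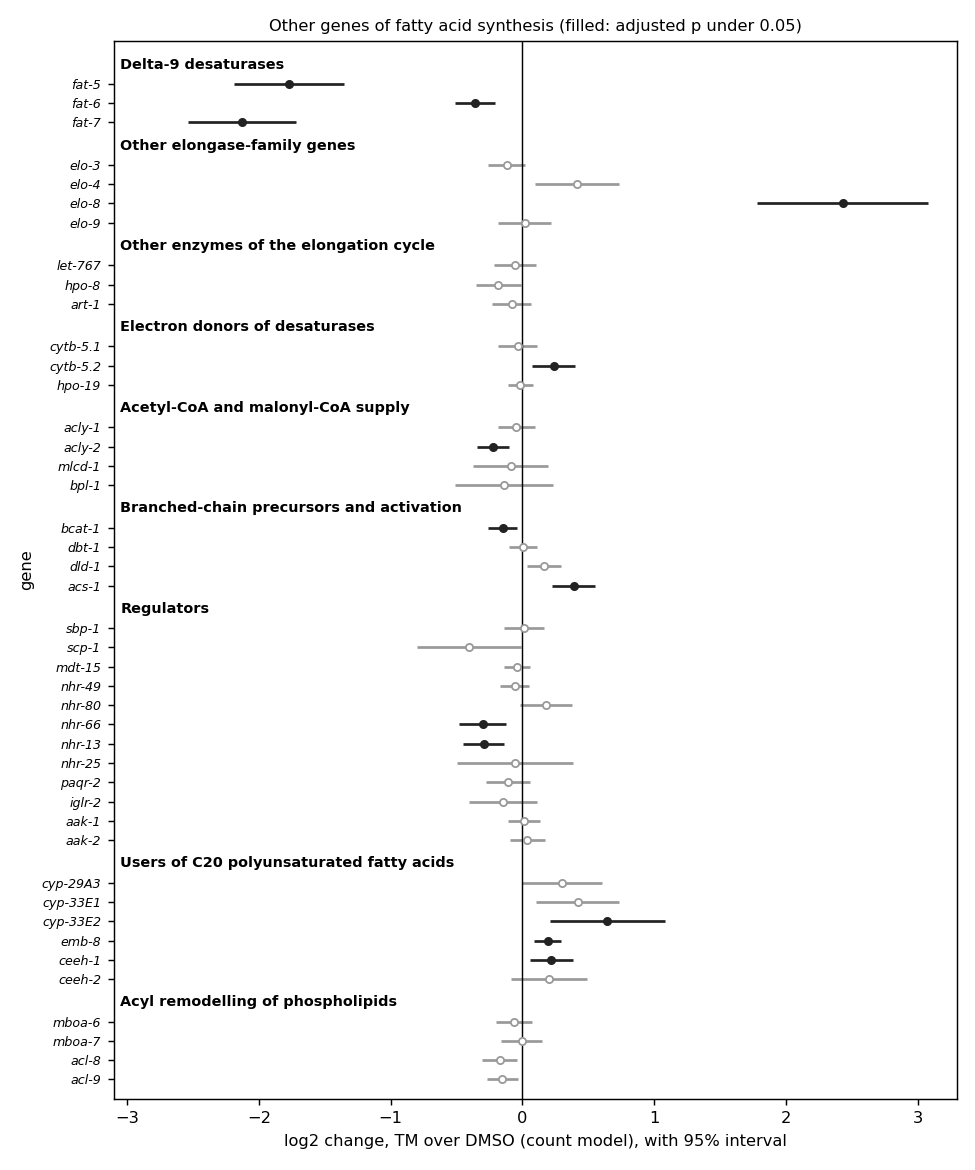
Log2 change in TM relative to DMSO of 43 other genes of fatty acid synthesis, its regulation and the use of its products. Values are from the count model, with 95% intervals and filled points for an adjusted p under 0.05. The 3 desaturase genes at the top lie to the left of 0, elo-8 lies farthest to the right, and 30 of the 43 points are open.

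In RNA of whole animals, fewer cells of a type and less RNA per cell cannot be told apart. The counts of called markers below stand beside 23.7% of all tested genes higher and 16.0% lower in TM. Of 8 intestine markers 4 rose (elt-7, ifb-2, act-5 and vha-6), 0 fell and 4 did not pass. Among the last was elt-2, with a log2 change of -0.20 ± 0.084 (edgeR adjusted p = 0.0759). The summed level of the 8 was 666 to 761 FPKM in DMSO and 764 to 899 FPKM in TM. Of this, act-5 held a mean of 403 FPKM in DMSO and 508 FPKM in TM. Of 8 germline and oocyte markers 5 fell and 0 rose, with summed levels of 3349 to 3724 FPKM in DMSO and 2786 to 3156 FPKM in TM. Of 7 tested epidermis markers 3 rose and 1, lin-26, fell. Sums over all 8 epidermis markers, with the untested che-14, were 93.6 to 105 and 106 to 115 FPKM. Of these sums lin-26 held means of 66.1 FPKM in DMSO and 60.5 FPKM in TM. The 6 sperm markers had sums of 2.68 to 10.9 and 39.1 to 57.5 FPKM. They give no count of calls, since spe-11 and ssp-35 passed the filter only through their TM levels and spe-9 lay below it. Of 6 body wall muscle markers 5 rose, with sums of 429 to 510 and 714 to 927 FPKM, and of 6 neuron markers 2 rose and 1 fell, with sums of 308 to 377 and 311 to 395 FPKM. No marker was at 0 in every library. The part of these cell types in the changes of the 10 genes was not tested.

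Total counts ran from 61432401 to 67068328 per library. The 10 genes held 0.289% ± 0.0138 of the counts in DMSO and 0.278% ± 0.0173 in TM, with 4466 to 41054 counts per gene and library, so counting error was small beside the spread between libraries. The first principal component of the tested genes (71.2% of the variance) put DMSO replicate 6 at -6.46, the other DMSO libraries at -62.8 to -41.0 and the TM libraries at 40.3 to 56.9. TM replicate 5 was lowest on the second component, at -38.6, followed by DMSO replicates 6 and 2 at -29.6 and -21.6, with the others from 1.97 to 15.8. TM replicate 5 also had the steepest trend on transcript length, at -0.264 on the log2 CPM scale for each doubling of length. DMSO replicate 6 was at -0.0937, the other DMSO libraries at 0.0349 to 0.176 and the other TM libraries at -0.0595 to 0.0175. The trend thus went partly with treatment, and removing it could also take away part of a treatment difference. With these trends removed, 1 of the 10 genes rose and 4 fell, the same counts as without.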

How the data were processed

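The deposited table holds raw read counts and FPKM values per gene and library, per the file headers. The submitters' processing notes name cutadapt 1.9, FastQC, HISAT2 2.2.1 and StringTie, and the labels describe poly(A)-selected libraries with strand marking by dUTP. Sources used here do not state the counting tool, its strand setting or the genome build. Of the identifiers, 24232 matched the WBcel235 annotation, with 97% of starts and 95.9% of ends equal, so coordinates are given as WBcel235.

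Counts were tested with edgeR 4.0.16 (TMM scaling, robust quasi-likelihood F test, two-sided, treatment as the only term) in R 4.3.3. Genes entered from a mean of 1 FPKM upwards, and p-values were adjusted over all of them by Benjamini-Hochberg. SE is the log2 change divided by the square root of F. Pair ratios used log2 CPM with a prior count of 0.5. Alternatives used limma 3.58.1, DESeq2 1.42.0, other scalings, filters and libraries, and a loess fit (span 0.5) on the transcript length implied by counts and FPKM. The scripts were tested on simulated data. The 10 genes, the lists and the tests were chosen with earlier results of these data known. The rule for naming genes beside the 10 took the other pathway genes that passed and the 2 nearest patterns of each of the 10 that passed. Pathway genes named without having passed were chosen after their values were seen. The 30 pairs of libraries within a group differed by more than counting noise (chi-square per degree of freedom 18.1 to 230.5), so each library counted once. The gene acl-10 was not analysed here.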

Additional observations from a re-analysis of the deposited data

Results flagged for a closer look

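The lowest and highest libraries of each gene were compared with the rest of their group of 6, in 20 groups, where chance alone would mark about 1 in 20. A single library stood apart in 2 groups, both times TM replicate 5. For fat-3 it had 44.6 FPKM, with the other TM libraries at 63.9 to 72.8. For fasn-1 it had 15.8 FPKM, with the others at 17.7 to 18.8, and still lay above the highest DMSO library. TM replicate 5 also had the steepest trend on transcript length and was lowest on the second principal component, and the part of either in these 2 values was not tested.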

How the results depend on the processing

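Leaving out any single library kept the calls and directions of fasn-1, elo-1, elo-2, elo-5 and elo-6, and the same 5 passed with DESeq2, limma, median-ratio scaling, either other filter and the length correction. Counts that rose among the 10 went from 1 to 2 with total counts only and without DMSO replicates 2 and 6 and TM replicate 5, both times by fat-1. The latter setting, chosen with the libraries known, also gave 2832 genes lower in all in place of 1851, and among the other pathway genes 20 called in place of 13 and 11 lower in place of 7, and the elo-1 to elo-2 difference of 0.243 no longer passed. The cause was not tested. The direction of fat-4 turned, always within 0.05 of 0 and without passing: -0.0208 with median-ratio scaling, -0.0136 without a filter, -0.0432 with edgeR's own filter, -0.0208 with DESeq2, -0.00397 with the length correction, -0.00184 with a replicate block, -0.00313 without TM replicates 1 and 2, and -0.0299 to 0.0429 with 1 library left out. That of fat-2 turned with edgeR's own filter (-0.0212) and ran from -0.00251 to 0.0533 with 1 library left out. With 1 library left out, 3 to 8 other pathway genes rose. The differences ran from 0.176 to 0.286 for elo-1 to elo-2, from 0.0580 to 0.0948 for fat-1 to fat-2 and from 0.115 to 0.190 for elo-5 to elo-6. The labels do not say whether the replicate numbers pair the libraries. Deviations of same-numbered libraries correlated at -0.336 to 0.227, and 1 of 6 DMSO libraries matched its own number best. Such correlations cannot show how the libraries were set up. With the replicate block, 3633 genes were called in place of 4590, 3 other pathway genes rose in place of 6, and elo-1 did not pass (log2 change -0.166, edgeR adjusted p = 0.0616).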
